A study of Homo sapiens with 10 samples.

Results

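The mRNA of 10 immediate early genes was followed in PC-3, an established line of human prostate cancer cells, before and after exposure to luteolin, gefitinib or both. The genes were ARC, EGR1, EGR2, EGR3, FOS, FOSB, FOSL1, JUN, JUNB and IER2, and were found by their names in the scanner files, which hold 13 probes and 22 spots for them out of 41000 probes. ARC was included because of its high signal in 1 drug-treated group, so its values are given as a description with no test, and counts of changed genes cover the other 9. Of the 10 genes, 9 passed the filter on dim probes, which asked that in at least 1 group each array show the probe well above background, and EGR3 did not. The filter kept 19718 genes in all. Luteolin is a plant flavonoid and gefitinib inhibits the tyrosine kinase of the epidermal growth factor receptor.

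Each of 5 groups had 2 single-color Agilent arrays, which the labels call biological replicates without saying whether they came from separate cultures, so the p-values measure only the spread between these arrays. The untreated group was taken at 0 h, before any reagent was added. The other groups were given DMSO (the solvent), luteolin (60 µM), gefitinib (60 µM) or both drugs (60 µM of each) for 24 h. All cells were of the same line, plated in dishes overnight in medium with serum, and both drugs were dissolved in DMSO. Labels and scanner file names disagree on the drug for 6 arrays: those labelled luteolin are named for gefitinib, those labelled gefitinib for both drugs, and those labelled luteolin plus gefitinib for luteolin. Groups follow the labels throughout, and which of the 2 sources is right was not tested, so each drug-treated group is called by its label.

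Immediate early genes are transcribed within minutes of a stimulus from proteins already in the cell, with no need for new protein synthesis. Kinases of the ERK, JNK and p38 pathways act on serum response factor with its ETS partners and on CREB at their promoters, and the mRNAs are short-lived, so a pulse usually fades within hours. FOS and JUN proteins pair to form the transcription factor AP-1, the EGR proteins are zinc finger transcription factors, and ARC, best known from neurons, acts in endocytosis of synaptic receptors.

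Promoter sequence was at hand in the RefSeq table (GRCh38.p14) for 7 of the 10 genes and not for ARC, EGR3 or FOSL1. The 250 bases before the start of EGR1, EGR2, FOS and JUNB are shown because EGR1 and FOS differed most between groups among the members tested, EGR2 moved the other way on the arrays labelled gefitinib, and JUNB was raised in every drug-treated group. Capitals mark the CArG box, the binding site of serum response factor, the letters TGACG on either strand (CGTCA when read on the other strand), which are part of the CREB site TGACGTCA, and TATAAA.
EGR1, chr5:138465229-138465478, plus strand: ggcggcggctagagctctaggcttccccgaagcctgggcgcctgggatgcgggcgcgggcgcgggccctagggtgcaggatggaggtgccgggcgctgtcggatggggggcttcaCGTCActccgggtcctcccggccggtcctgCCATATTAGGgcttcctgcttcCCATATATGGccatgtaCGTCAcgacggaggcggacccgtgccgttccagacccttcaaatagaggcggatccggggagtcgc
EGR2, chr10:62816367-62816616, minus strand: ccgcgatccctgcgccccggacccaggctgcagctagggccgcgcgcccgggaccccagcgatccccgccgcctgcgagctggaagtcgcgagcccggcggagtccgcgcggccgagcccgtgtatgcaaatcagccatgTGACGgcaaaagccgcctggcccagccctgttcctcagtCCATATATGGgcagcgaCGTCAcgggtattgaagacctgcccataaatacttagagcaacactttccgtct
FOS, chr14:75278578-75278827, plus strand: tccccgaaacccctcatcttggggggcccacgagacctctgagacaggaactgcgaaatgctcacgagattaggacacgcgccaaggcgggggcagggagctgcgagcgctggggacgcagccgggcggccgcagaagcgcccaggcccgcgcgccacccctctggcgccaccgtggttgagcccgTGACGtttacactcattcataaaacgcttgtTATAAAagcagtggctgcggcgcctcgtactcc
JUNB, chr19:12791236-12791485, plus strand: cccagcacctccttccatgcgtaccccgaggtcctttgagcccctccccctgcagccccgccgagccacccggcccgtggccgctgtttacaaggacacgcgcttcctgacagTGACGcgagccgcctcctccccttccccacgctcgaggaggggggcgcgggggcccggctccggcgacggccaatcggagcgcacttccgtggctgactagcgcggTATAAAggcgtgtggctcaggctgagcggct

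Over the 300 bases of each promoter in the table, which runs to 50 bases past the start, a CArG box was found in EGR1 and EGR2 and in 1.29% of all 35116 promoters. TGACG was found in 7 of 7 of these genes and in 24.6% of all promoters, and the complete TGACGTCA in 0 of 7 and in 1.85%. TATAAA was found in FOS, FOSB and JUNB and in 11.5% of all promoters. The AP-1 site TGANTCA was found in 0 of 7 and in 7.71%, and the EGR site GCGNGGGCG in EGR1 alone among the 7 and in 9.43%. Both strands were searched, TGACG lies inside every TGACGTCA, and a match describes these letters only. Sites further from the start were not searched, so the lack of a match here does not show that a gene lacks the site.

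Levels are log2 of the processed signal minus that of the array's 75th percentile, so that 0 is the level of a fairly bright probe, and they are compared between groups for 1 probe and not between genes. That percentile was 628 to 651 signal units on the arrays labelled gefitinib and 540 and 865 where the label gave both drugs, against 1041 to 1402 on the other 6. Its part in the results was not tested. Scaling to the median changed no call of a member, but it too applies 1 factor per array and cannot test this. Quantile normalization took 4 of 34 called changes below the threshold. These were JUN with gefitinib against 0 h (0.99) and against luteolin (0.97), JUNB with both drugs against 0 h (0.97) and FOSB with luteolin against DMSO (1.24). In each array of cells, fewer cells that make an mRNA and less of it per cell cannot be told apart. All 4 epithelial markers were well above background on all 10 arrays. Of the immune markers given here, CD3E and CD14 were above background on all 10 and PTPRC on 0. With gefitinib against DMSO CD3E and CD14 were raised, CD3E by 1.25 and CD14 by 1.81 on the log2 scale. Of 4 fibroblast markers DCN was above background on 0 arrays, COL1A2 on 2, LUM on 8 and COL1A1 on 9, and of 3 endothelial markers VWF and CDH5 were above it on 1 each and PECAM1 on all 10. KLK3, which encodes prostate-specific antigen, lay between 3.38 and 5.14. Of 5 neuronal markers RBFOX3 was above background on 0 arrays and SYN1 and GRIN1 on all 10. The 4 that passed the filter summed to 5.40 to 6.46 times the 75th percentile at 0 h and with DMSO, 6.35 and 7.75 with luteolin, 12.2 and 19.0 with gefitinib and 8.70 and 14.8 with both drugs by the labels. SYN1 was raised by 1.38 and GRIN1 by 1.56 on the log2 scale with gefitinib against DMSO. The part of these markers in the results was not tested.

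ARC was near the floor of the arrays in untreated, DMSO-treated and luteolin-labelled cells and far higher on the arrays labelled gefitinib. Its log2 level, on chromosome 8 by the annotation of its probe, was -5.10 and -4.72 at 0 h, -4.64 and -4.99 with DMSO, and -5.28 and -4.53 on the arrays labelled luteolin. It was 1.17 and 0.29 on the arrays labelled gefitinib and, where the label was luteolin plus gefitinib, -2.62 and -2.72. The first 3 groups overlapped one another, and both gefitinib-labelled groups lay apart from them and from each other. In processed signal units the 6 lower arrays read 30.2 to 54.0, the arrays labelled gefitinib 1464 and 766, and those with both drugs 141 and 81.7. The probe was well above background on all 10 arrays.

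On the log2 scale the mean of ARC was 5.55 above DMSO on the arrays labelled gefitinib, or 46.7-fold, and 2.15 above it on those labelled luteolin plus gefitinib, or 4.43-fold. On the arrays labelled luteolin it was 0.09 below DMSO, and DMSO was 0.09 above 0 h. Luteolin plus gefitinib was 3.40 below gefitinib alone by the labels. Arrays on the same slide gave 5.81 for gefitinib against DMSO on the first slide, 2.03 and 2.27 for both drugs against DMSO on the first and second, and 5.39 for gefitinib against 0 h on the third. With the normexp background correction the differences from DMSO were 4.34 and 1.49. Under the file-name treatments, the value of 5.55 belongs to both drugs together, 2.15 to luteolin and -0.09 to gefitinib.

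**Figure D1:**
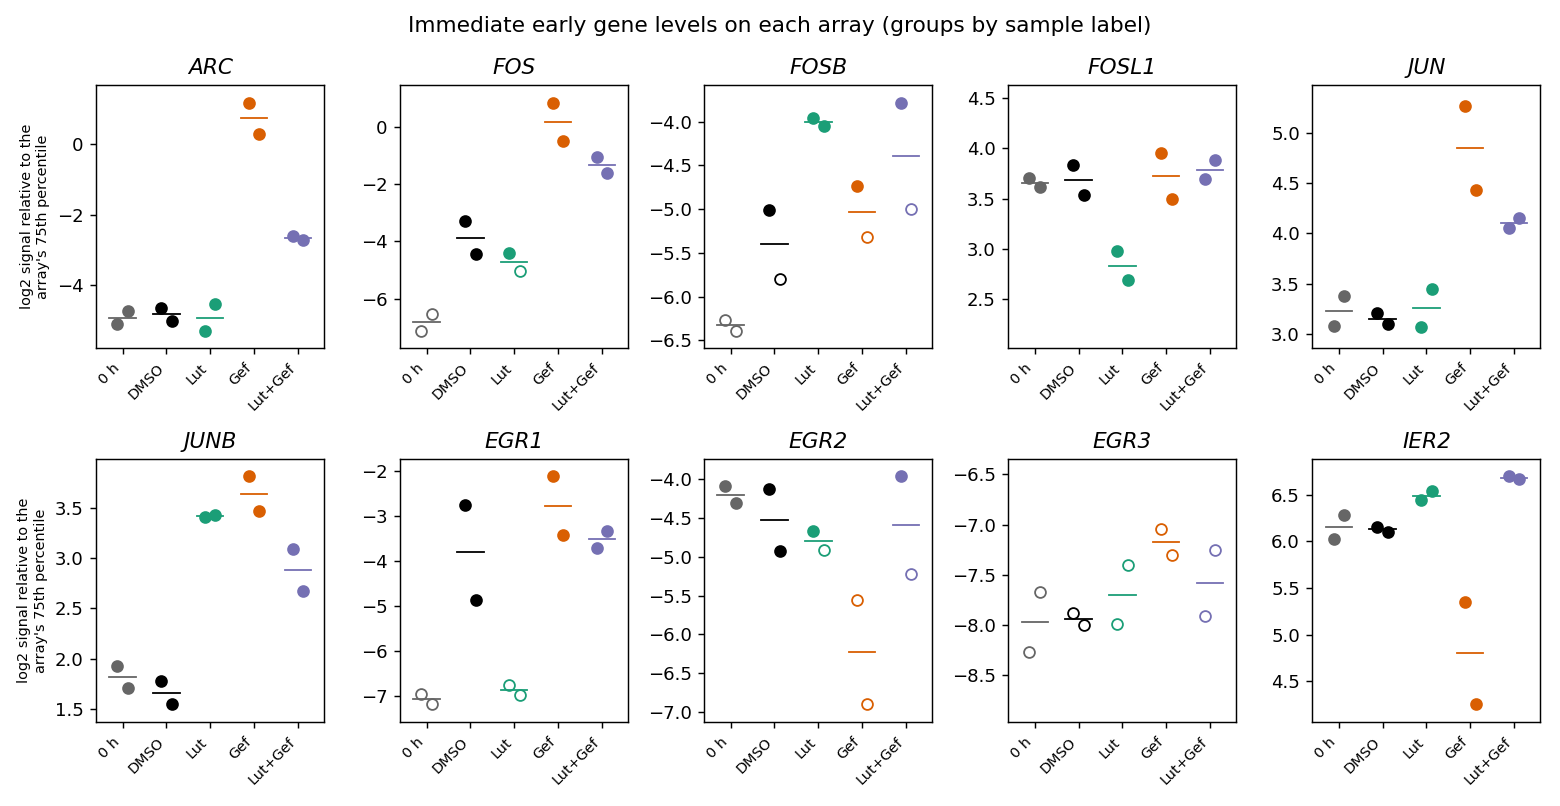
Log2 level, as defined in the text (vertical axes, each with its own range) for the 10 genes, with 1 point per array and a line at the mean of each group of 2. Filled points were well above background and open points were not. ARC and FOS were highest on the arrays labelled gefitinib, EGR1 was below background at 0 h and with luteolin, and EGR3 was below background on all arrays.

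FOS, the founding member of the FOS family and a partner of JUN in AP-1, differed most from DMSO among the members tested. Its probe (chr14:74817967-74818026, hg18) read -7.11 and -6.51 at 0 h, where it was not above background, -3.29 and -4.45 with DMSO, and -4.41 and -5.01 on the arrays labelled luteolin, with 1 of the 2 above background. It read 0.84 and -0.52 on the arrays labelled gefitinib and, where the label was luteolin plus gefitinib, -1.05 and -1.61. DMSO and luteolin overlapped, and every other pair of neighbouring groups was separate. Against DMSO, FOS was raised by 4.03 (SE 0.52, 16.3-fold, adjusted p = 0.0008, limma with Benjamini-Hochberg adjustment) on the arrays labelled gefitinib. On those labelled luteolin plus gefitinib it was raised by 2.54 (SE 0.52, 5.83-fold, limma adjusted p = 0.00767), a call that was lost without DMSO replicate 2 (1.96, limma adjusted p = 0.0545). The change with luteolin was -0.84 (SE 0.52, limma adjusted p = 0.279).

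Between the drug-treated groups, FOS was 4.87 higher with gefitinib than with luteolin (limma adjusted p = 0.0002) and 3.38 higher with both drugs than with luteolin (limma adjusted p = 0.00218). With both drugs it was 1.49 below gefitinib, with a limma adjusted p of 0.0447. That last call was lost without any 1 of 7 arrays, all those but DMSO replicates 1 and 2 and gefitinib replicate 2, and the change then ranged from -0.81 without gefitinib replicate 1 to -1.77 without luteolin plus gefitinib replicate 1. Under the file-name treatments, the gefitinib arrays would be those 0.84 below DMSO.

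FOSB, the closest relative of FOS, was dim on most arrays. It read -6.27 and -6.39 at 0 h, -5.00 and -5.80 with DMSO, -3.96 and -4.05 with luteolin, -4.73 and -5.32 with gefitinib, and -3.78 and -5.00 with both drugs by the labels, and it was well above background on 5 of 10 arrays. The luteolin arrays did not overlap those of DMSO, whereas gefitinib overlapped DMSO and both drugs overlapped either drug. FOSB was raised by 1.40 against DMSO with luteolin (SE 0.41, 2.63-fold, limma adjusted p = 0.0381), and the call was lost without either array of 0 h, DMSO or luteolin in turn (1.00 to 1.79). It was also lost with no filter on dim probes (limma adjusted p = 0.0766), with quantile normalization (limma adjusted p = 0.0552) and with the normexp correction (0.65, under 2-fold). Luteolin was the only group with FOSB above background on both arrays, so the gene was kept for the test through the group in which it is called high. With both drugs it was 1.01 above DMSO (SE 0.41, limma adjusted p = 0.0782), and with gefitinib 0.37 (limma adjusted p = 0.463).

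FOSL1, a FOS family member that also pairs with JUN proteins, was bright on every array and lowest with luteolin. It read 3.71 and 3.61 at 0 h, 3.84 and 3.54 with DMSO, 2.97 and 2.69 with luteolin, 3.95 and 3.50 with gefitinib, and 3.70 and 3.88 with both drugs. Both luteolin arrays lay below the other 8, which overlapped. The difference of luteolin from DMSO was -0.86 (SE 0.21, limma adjusted p = 0.0193), under the 2-fold required of a call, and a second probe gave -0.99 (limma adjusted p = 0.00435). That second probe passed both thresholds for luteolin against 0 h (-1.08, limma adjusted p = 0.00258) and gefitinib against luteolin (1.06, limma adjusted p = 0.00105). The main probe, which is the one counted, gave -0.83 and 0.90 there, under 2-fold. The differences from DMSO with gefitinib and with both drugs were 0.04 (95% interval -0.44 to 0.52) and 0.10 (95% interval -0.38 to 0.58).

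JUN, the partner of FOS in AP-1 and itself a target of JNK, was higher on the arrays labelled gefitinib than on all others. Its probe (chr1:59020317-59020376, hg18), printed at 10 spots of each array and averaged, read 3.08 and 3.38 at 0 h, 3.2 and 3.1 with DMSO, 3.06 and 3.45 with luteolin, 5.27 and 4.44 with gefitinib, and 4.05 and 4.16 with both drugs. The first 3 groups overlapped, both drugs lay above them, and gefitinib lay above both drugs. JUN was raised by 1.70 with gefitinib against DMSO (SE 0.27, 3.26-fold, limma adjusted p = 0.00202). With both drugs the difference from DMSO was 0.95 (SE 0.27, limma adjusted p = 0.0259), under 2-fold, and with luteolin 0.11 (95% interval -0.52 to 0.73). Both drugs against gefitinib gave -0.75 (limma adjusted p = 0.0526).

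JUNB, a JUN family member that often opposes JUN at shared sites, rose in every drug-treated group. Its probe (chr19:12765047-12765106, hg18) read 1.93 and 1.71 at 0 h and 1.77 and 1.54 with DMSO. It read 3.41 and 3.44 with luteolin, 3.82 and 3.48 with gefitinib and 3.09 and 2.68 with both drugs. The 6 drug-treated arrays all lay above the 4 others, in the order both drugs, luteolin, gefitinib with no overlap between neighbours. Against DMSO it was raised by 1.77 with luteolin (SE 0.20, 3.40-fold), by 1.99 with gefitinib (SE 0.20, 3.97-fold) and by 1.23 with both drugs (SE 0.20, 2.34-fold), with limma adjusted p-values of 0.00113, 0.000305 and 0.00367. A second probe gave 1.73, 2.05 and 1.30. These 3 calls held without any 1 array and under the file-name treatments. Between luteolin and gefitinib the difference was 0.22 (limma adjusted p = 0.367, 95% interval -0.24 to 0.69), and both drugs were 0.76 below gefitinib (limma adjusted p = 0.0159), under 2-fold.

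**Figure D2:**
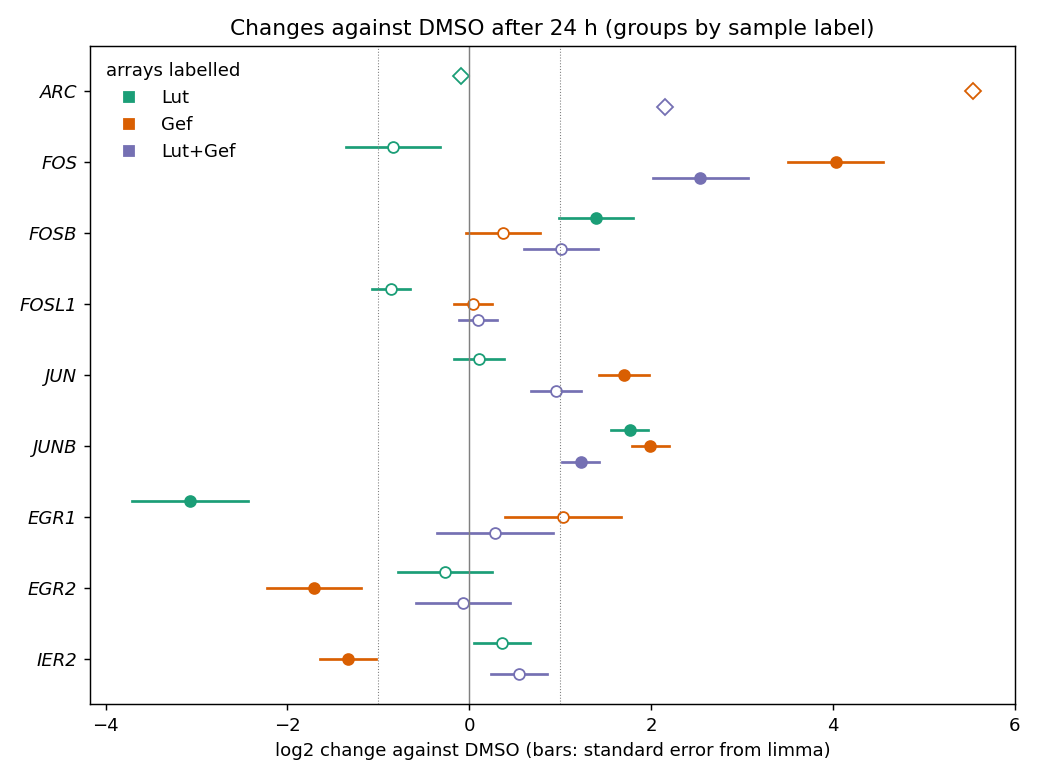
Log2 change against DMSO (horizontal axis) on the arrays labelled luteolin, gefitinib or both, for 9 genes, with bars for the standard error from limma. Filled points passed an adjusted p of 0.05 and a 2-fold change (dotted lines at -1 and 1), and diamonds show ARC, which was not tested. JUNB was raised in all 3 groups, FOS in both gefitinib-labelled groups, and EGR1 was lowered with luteolin, where its signal was below background and the plotted value is the measured difference. EGR2 with gefitinib was also below background and is plotted by its measured difference.

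EGR1, a zinc finger factor and classic target of ERK signalling, was below background at 0 h and on the arrays labelled luteolin and measurable elsewhere. Its probe (chr5:137832790-137832849, hg18) read -6.96 and -7.20 at 0 h, -2.74 and -4.87 with DMSO and -6.77 and -6.99 with luteolin. It read -2.11 and -3.43 with gefitinib and -3.71 and -3.32 with both drugs. The 0 h and luteolin arrays overlapped at the bottom, and DMSO, gefitinib and both drugs overlapped at the top. With luteolin EGR1 was at least 3.31-fold lower than with DMSO (measured log2 difference -3.07, SE 0.64, limma adjusted p = 0.0105), and the call was lost without luteolin replicate 2 (-2.96, limma adjusted p = 0.0699) and with the normexp correction (-0.88, limma adjusted p = 0.0573). It was at least 6.79-fold higher with gefitinib than with luteolin (limma adjusted p = 0.00103) and at least 4.04-fold higher with both drugs than with luteolin (limma adjusted p = 0.00495). Against DMSO it differed by 1.04 with gefitinib (limma adjusted p = 0.2) and by 0.29 with both drugs (limma adjusted p = 0.738, 95% interval -1.18 to 1.75). With the file names, the arrays below background would be those of gefitinib.

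EGR2, a paralogue best known from hindbrain and Schwann cells, was lowest on the arrays labelled gefitinib. It read -4.09 and -4.30 at 0 h, -4.13 and -4.92 with DMSO, -4.67 and -4.91 with luteolin, -5.56 and -6.90 with gefitinib, and -3.96 and -5.22 with both drugs, and it was above background on 6 of 10 arrays but on 0 of the 2 labelled gefitinib. Both gefitinib arrays lay below the other 8, which overlapped. The change against DMSO was at least 1.44-fold lower with gefitinib (measured log2 difference -1.71, SE 0.52, limma adjusted p = 0.0232). This lower bound is under 2-fold, so the call rests on the measured difference to a signal below background. It was lost without DMSO replicate 1 (-1.31) or gefitinib replicate 2 (-1.03) and with the normexp correction (0.29, limma adjusted p = 0.127). EGR3 was above background on 0 of 10 arrays, between -8.26 and -7.05, and no fold was computed.

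IER2, a small nuclear protein induced by serum, fell on the arrays labelled gefitinib while staying well above background on all 10 arrays. Its main probe (chr19:13126586-13126645, hg18) read 6.02 and 6.28 at 0 h, 6.16 and 6.10 with DMSO and 6.44 and 6.54 with luteolin. It read 5.34 and 4.25 with gefitinib and 6.69 and 6.67 with both drugs. Both gefitinib arrays lay below the other 8, and the arrays with both drugs lay above all others. IER2 was lowered by gefitinib against DMSO with a log2 change of -1.33 (SE 0.31, 2.52-fold lower, limma adjusted p = 0.00793), and -0.78 without gefitinib replicate 2, which is under 2-fold. A second probe gave -1.22 (limma adjusted p = 0.0113). The differences from DMSO with luteolin and with both drugs were 0.36 (limma adjusted p = 0.437) and 0.55 (limma adjusted p = 0.179), and IER2 was 1.88 higher with both drugs than with gefitinib (limma adjusted p = 0.00165). With the file names, the low arrays would be those with both drugs.

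Counted over the 9 genes other than ARC, of which 8 could be tested, luteolin raised 2 (FOSB and JUNB) and lowered 1 (EGR1) against DMSO, where 7.22% of all genes tested were called raised and 6.17% lowered. Gefitinib, by the labels, raised 3 (FOS, JUN and JUNB) and lowered 2 (EGR2 and IER2), where 15.6% and 14.3% of all genes were called. Since ARC was chosen from that group, nothing is read from this count. Both drugs raised 2 (FOS and JUNB) and lowered 0, with 12.1% and 7.69% of all genes called. The methods' t-test, a 1-sample test on the log2 ratios of the 2 arrays, called 0 members in each of the 10 comparisons after Benjamini-Hochberg adjustment. With only 2 ratios this test can hardly pass that adjustment, so its 0 is not set against the limma calls. EGR1, EGR2, FOS and FOSB passed the filter through the groups in which they were bright, so these counts do not weigh them against genes measured in every group. The median change of the 8 genes was -0.08 with luteolin, 0.70 with gefitinib and 0.75 with both, beside 0.08, 0.22 and 0.16 over all genes. Without luteolin replicate 2 the luteolin count was 1 of 8, without gefitinib replicate 2 the gefitinib count was 3, and without DMSO replicate 2 the count for both drugs was 1.

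Between the drug-treated groups, gefitinib against luteolin gave 3 raised (EGR1, FOS and JUN) and 2 lowered (EGR2 and IER2), where 18.5% and 18.1% of all genes were called. Both drugs against luteolin gave 2 raised (EGR1 and FOS) and 0 lowered, beside 11.3% and 9.75%. Both drugs against gefitinib gave 2 raised (EGR2 and IER2) and 1 lowered (FOS), beside 17.2% and 9.76%. Without luteolin plus gefitinib replicate 1 this last count was 1. The EGR2 call for gefitinib against luteolin was lost without gefitinib replicate 2 (-0.77) and without either array of 0 h or luteolin (-1.32 to -1.56). This call was also lost with no filter (limma adjusted p = 0.0722) and with the normexp correction (0.31, limma adjusted p = 0.0978). That for both drugs against gefitinib was lost without gefitinib replicate 2 (0.97) or luteolin plus gefitinib replicate 1 (1.01), with no filter (limma adjusted p = 0.0601), with these 2 groups alone in the fit (limma adjusted p = 0.0671) and with the normexp correction (0.24). With gefitinib EGR2 was below background, at least 1.20-fold below luteolin and at least 1.37-fold below both drugs. These bounds are under 2-fold, and both calls rest on the measured difference. In both contrasts with gefitinib the rule for ARC used the gefitinib values, and nothing is read from the shares.

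Against untreated cells, EGR1 and FOS were also higher with the solvent, although no member passed the test. The solvent and the 24 h of culture cannot be told apart in this comparison. DMSO for 24 h left EGR1 at least 4.87-fold and FOS at least 4.65-fold above 0 h, with measured log2 differences of 3.28 (limma adjusted p = 0.247) and 2.94 (limma adjusted p = 0.165). Both DMSO arrays lay above both 0 h arrays for EGR1, FOS and FOSB, and the arrays of these groups did not overlap for 49.1% of all genes. The count of members called was 0 of 8 by limma, where 0.0254% of all genes were called raised and 0.0101% lowered. It was also 0 by the methods' t-test with or without adjustment. JUN, JUNB, IER2 and FOSL1 differed from 0 h by -0.08, -0.16, -0.02 and 0.03.

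Each drug-treated group differs from 0 h by drug, DMSO and 24 h of culture at once, and these cannot be told apart here. Of the calls below, FOS with luteolin (-0.84) was not called against DMSO. Nor were EGR1 and FOSB with gefitinib (1.04 and 0.37) or both drugs (0.29 and 1.01), and the others were. Against 0 h, 3 genes (FOS, FOSB and JUNB) were raised and 0 lowered by their main probes on the arrays labelled luteolin. There 8.26% and 7.85% of all genes were called, and the second probe of FOSL1 passed as lowered (-1.08). With gefitinib, by the labels, 5 were raised (EGR1, FOS, FOSB, JUN and JUNB) and 2 lowered (EGR2 and IER2). Of all genes 14.5% were called in each direction, and nothing is read from this. With both drugs 4 were raised (EGR1, FOS, FOSB and JUNB) and 0 lowered, where 11.5% and 8.32% were called. FOS was at least 2.60-fold above 0 h with luteolin (limma adjusted p = 0.018), at least 76.1-fold with gefitinib (limma adjusted p = 8.11e-05) and at least 27.1-fold with both (limma adjusted p = 0.000715). EGR1 was at least 9.97-fold above 0 h with gefitinib (limma adjusted p = 0.00145) and at least 5.94-fold with both (limma adjusted p = 0.00473). EGR2 was at least 1.81-fold below 0 h with gefitinib. That bound is under 2-fold, and the call rests on the measured log2 difference (-2.04). FOSB, which passed the filter only through the luteolin group, was at least 4.24-fold above 0 h with luteolin (limma adjusted p = 0.00443), at least 2.09-fold with gefitinib (limma adjusted p = 0.027) and at least 3.25-fold with both (limma adjusted p = 0.00842). The FOS call with luteolin was lost without 0 h replicate 1 or either luteolin array (1.79 to 2.40 on the log2 scale), and the FOSB call with gefitinib without either 0 h array or gefitinib replicate 1 (1.01 to 1.36). Without gefitinib replicate 2, EGR2 (-1.36) and IER2 (-0.81) were no longer called lowered with gefitinib, nor was EGR2 without 0 h replicate 1 (-1.93). JUNB with both drugs was under 2-fold without 0 h replicate 2 (0.96) or luteolin plus gefitinib replicate 1 (0.86).

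Among the 5 genes whose level over the 10 arrays was most like that of ARC, out of 19702 compared, were NUBP2, GPS1, ARL16 and MAPK9, with Pearson's r of 0.991, 0.988, 0.981 and 0.980. MAPK9 encodes JNK2. The 10 points share 5 groups of 2 arrays and the scaling of each array, so r is a description. The likeness is in shape and not in size: from DMSO to the arrays labelled gefitinib, the mean log2 level of NUBP2 went from -0.55 to 0.28, that of GPS1 from 1.65 to 2.60 and that of MAPK9 from -0.77 to 0.25. Among the members, r with ARC was 0.97 for JUN, 0.87 for FOS, 0.71 for EGR1 and 0.64 for JUNB, and -0.72 for EGR2 and -0.68 for IER2.

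**Figure D3:**
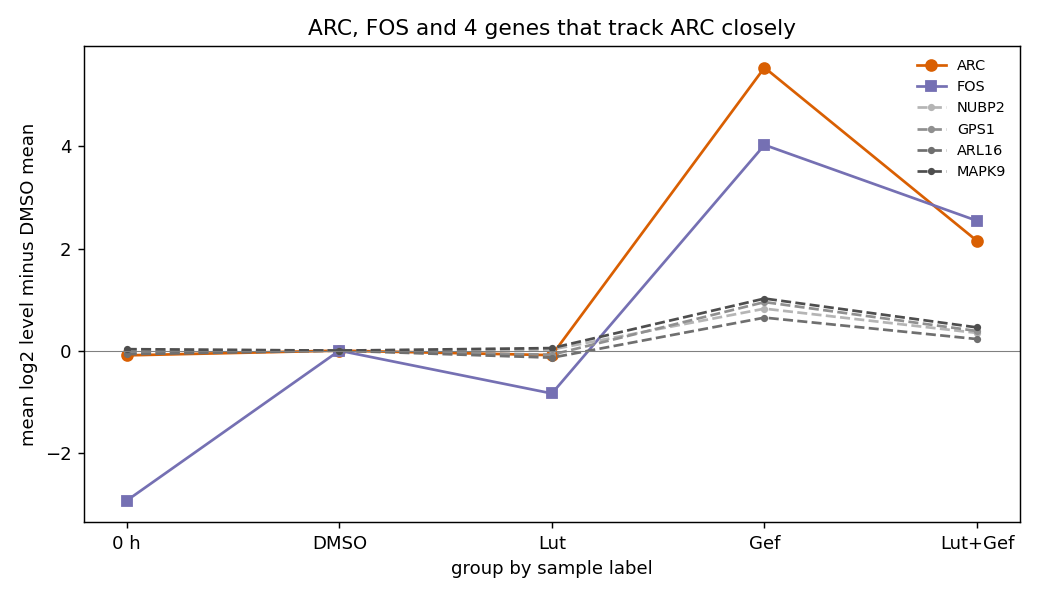
Mean log2 level minus the DMSO mean (vertical axis) in the 5 groups by label, for ARC, FOS and 4 of the 5 genes with the highest correlation with ARC. ARC reached 5.55 on the arrays labelled gefitinib, whereas MAPK9 reached 1.02.

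The related genes described next come from lists of pathway members drawn up with earlier results of these data known, so their counts are a description. Against DMSO, 7.22% of all genes were raised with luteolin, 15.6% with gefitinib and 12.1% with both, and 6.17%, 14.3% and 7.69% were lowered. The median change of all genes was 0.08, 0.22 and 0.16. These values belong beside the counts and medians of every list below. Of 10 tested genes for other AP-1 subunits and their bZIP partners, 3 were raised and 1 lowered with luteolin, 3 and 1 with gefitinib, and 4 and 1 with both, against DMSO. ATF3, a stress-induced bZIP factor that pairs with JUN proteins, was raised in each of the 3 groups, by 1.88, 3.14 and 2.60 (SE 0.43 each). JDP2, a JUN dimerization repressor, was raised by 2.18 with luteolin, FOSL2 by 1.63 with gefitinib and MAFG by 1.81 with gefitinib and 2.13 with both. The list's median change was 0.54, 0.67 and 0.81. Of 3 EGR relatives and co-repressors tested, NAB2, which represses EGR factors and is itself an EGR target, was raised by 1.25 with luteolin. WT1, a zinc finger factor that binds similar sites, was not above background on either array with luteolin or gefitinib and was at least 3.16-fold and at least 2.47-fold lower there than with DMSO. It was lowered with both drugs (-2.07), where 1 of 2 arrays was above background.

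Of 25 other primary response genes, 9 were raised and 2 lowered with luteolin, 11 and 4 with gefitinib and 11 and 1 with both, with median changes of 0.38, 0.25 and 0.74. NR4A2, an orphan nuclear receptor, was raised by 2.93, 3.80 and 1.87 (SE 0.48 each), and KLF6, a zinc finger factor, by 1.81, 3.78 and 1.98 (SE 0.44 each). GEM, a small GTP-binding protein, was raised by 1.99, 3.85 and 1.40 in the 3 groups (SE 0.36 each). RHOB was not above background with DMSO and was at least 8.46-fold higher with gefitinib (limma adjusted p = 0.000435). It was at least 2.21-fold higher with luteolin and at least 2.25-fold higher with both drugs. ID1, an inhibitor of differentiation factors, was lowered with gefitinib (-2.69) and so was SGK1 (-2.09). CCN2, a YAP target and matricellular protein, was lowered in the 3 groups (-2.93, -1.63 and -1.63) and CCN1 with luteolin (-2.14).

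Of 22 kinases and factors that act upstream of these promoters, 2 were raised and 0 lowered with luteolin, 2 and 2 with gefitinib and 0 and 2 with both. SRF, serum response factor itself, was lowered with gefitinib (-1.65, SE 0.17, limma adjusted p = 0.000305), as was its cofactor MRTFB (-1.50). MEF2D was raised by 1.27 and MAPK9 by 1.02 in that group. With luteolin CREM, a CREB relative, was raised by 1.29 and RPS6KA3, which encodes the kinase RSK2, by 1.00, and with both drugs RPS6KA5, which encodes MSK1, was lowered (-2.03) and so was MEF2C (-1.17). The list's median change was 0.04, 0.24 and -0.06.

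Of 11 genes for feedback inhibitors of ERK and related kinases, 2 were raised and 0 lowered with luteolin, 2 and 4 with gefitinib and 2 and 1 with both, with median changes of 0.04, -0.60 and 0.22. DUSP6, the ERK phosphatase whose own mRNA follows ERK activity, was lowered with gefitinib (-3.79, SE 0.26, limma adjusted p = 7.45e-05), on the arrays on which ARC and FOS were highest. SPRY1 (-2.09) and SPRY4 (-1.51), which encode Sprouty inhibitors of receptor signalling, were lowered there too. DUSP10, which acts on JNK and p38, was raised by 1.95, 2.17 and 2.21 in the 3 groups. DUSP1 was raised by 1.81 with both drugs.

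Of 13 tested genes known from neuronal activity or as partners of ARC in endocytosis, 1 was raised and 0 lowered with luteolin, 3 and 3 with gefitinib and 2 and 1 with both, with median changes of 0.06, 0.67 and 0.03. PTGS2, the inducible cyclooxygenase, was not above background with DMSO and was at least 6.50-fold higher with luteolin, at least 3.12-fold with gefitinib and at least 4.93-fold with both. PLK2, an activity-induced kinase, was lowered with gefitinib (-2.54), and SH3GL2, an endophilin gene, was raised by 1.28. Of 14 known AP-1 targets, 2 were raised with luteolin, 5 with gefitinib and 4 with both, and 0 were lowered, with median changes of 0.45, 0.87 and 0.43. CXCL8, the chemokine interleukin-8, was raised by 3.41 with gefitinib and 3.02 with both (SE 0.39 each) and the protease gene MMP3 by 2.23 and 1.79. MMP1, the interstitial collagenase, was raised by 1.98 with luteolin and 1.07 with gefitinib.

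**Figure D4:**
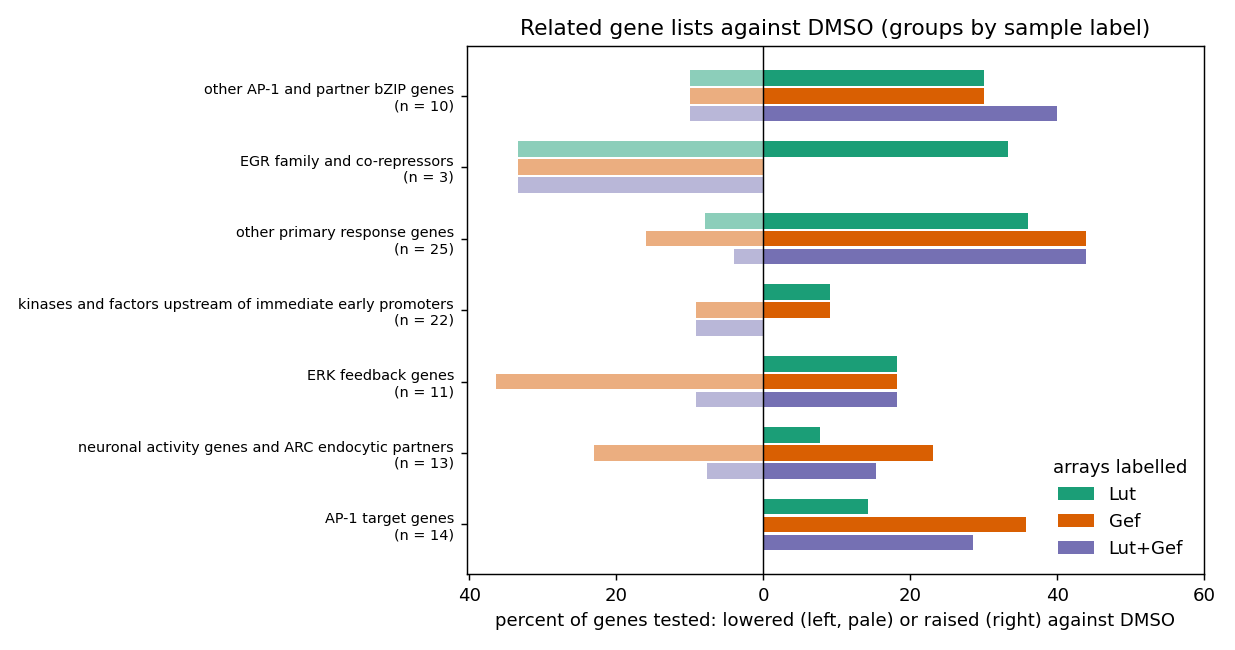
Percent of the genes tested on each list that were raised (right) or lowered (left, pale) against DMSO on the arrays labelled luteolin, gefitinib or both. Among all genes, 7.22%, 15.6% and 12.1% were raised and 6.17%, 14.3% and 7.69% lowered.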

How the data were processed

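Version 10.7.3.1 of Agilent Feature Extraction is named in the headers, and an earlier version in the methods. The intensities the authors deposited for the 10 arrays are processed signals with background and spatial trend subtracted within the array, and were not normalized between arrays. The values deposited for the series as a whole held the same signals, and 0 columns of values were left unused. The members and lists were chosen with earlier results of these data known.

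Spots were read with R 4.3.3 and the package data.table (1.17.8). Control and outlier spots were left out, the spots of each probe averaged, and log2 levels taken relative to the array's 75th percentile. Probes kept were well above background (at least 50% of spots) on both arrays of at least 1 group, 28776 of 41000, for 19718 genes. Each gene was represented by its probe with the highest mean. Signal over background, not a count, sets the depth, and 2 arrays per group limit the precision.

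A limma 3.58.1 model with 5 groups was fitted to all 10 arrays (5 residual and 3.36 prior degrees of freedom). P-values were adjusted by Benjamini-Hochberg over all probes kept, and calls needed a measured 2-fold change besides an adjusted p below 0.05. A fold "at least" raises each array of a group below background to its lowest signal well above background where its own signal is lower. Percentages in the text are shares of genes called and come from this fit. Genes named are all members, up to 4 called members of each list and comparison by size, and the 5 genes most correlated with ARC, 1 of which is not reported here. Markers of cell types were added as checks. SYN1, GRIN1, CD3E and CD14 were named after their values were seen. Promoters came from RefSeq and probe coordinates from the scanner files (hg18).

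Alternatives were normexp with an offset of 50, quantile normalization, median scaling, no filter, only probes above background on all 10 arrays, the deposited values of the series, the replicate number or the slide as a block, a fit to the compared groups alone, the treatments of the file names, the median over probes, no minimum fold, the methods' t-test (1-sample, on log2 ratios) adjusted or not, and omission of each array, where the lone array left is assumed to vary like the others. The fit was tested on simulated data.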

Additional observations from a re-analysis of the deposited data

How the results depend on the processing

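Counts are of members called among the 9 genes other than ARC. In the order luteolin, gefitinib and both drugs against DMSO, DMSO, luteolin, gefitinib and both drugs against 0 h, gefitinib against luteolin, both drugs against luteolin and both drugs against gefitinib, they were 3, 5, 2, 0, 3, 7, 4, 5, 2 and 3. Leaving out 1 array at a time gave 1 to 3, 3 to 5, 1 to 3, 0, 2 to 3, 5 to 7, 3 to 4, 4 to 6, 2 to 3 and 1 to 3. Normexp gave 1 with luteolin against DMSO and 1 against 0 h. With only probes above background on all 10 arrays, which removes the 4 dim genes EGR1, EGR2, FOS and FOSB, the counts were 1, 3, 1, 0, 1, 3, 1, 2, 0 and 1. Under the file-name treatments they were 2, 3, 5, 0, 4, 3, 7, 2, 3 and 5. The methods' t-test gave 0 throughout after adjustment, and without it 3, 0, 0, 0, 2, 0, 2, 0, 1 and 1. With no minimum fold, both drugs against luteolin gave 4, and other counts rose too. Against DMSO, FOSL1 with luteolin (limma adjusted p = 0.0193) and JUN with both drugs (limma adjusted p = 0.0259) then passed. So did JUNB for both drugs against gefitinib (limma adjusted p = 0.0159). Both drugs against gefitinib gave 1 with no filter and 1 with a fit to those groups alone. The cause of these differences was not tested beyond the change of arrays, genes or labels that each setting makes.

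Reversed here means only that the sign changed, also where the new value is near 0. The file names reversed ARC with gefitinib against DMSO (-0.089), gefitinib against luteolin (-2.24) and both drugs against gefitinib (5.63), and FOS in the same comparisons (-0.84, -3.38 and 4.87). They reversed EGR1 with luteolin against DMSO (0.29) and gefitinib against luteolin (-3.36), EGR2 with both drugs against gefitinib (-1.44), JUN with gefitinib against luteolin (-0.85), and IER2 with gefitinib against DMSO (0.36) and 0 h (0.34) and both drugs against gefitinib (-1.69). Among those not called with the new sign were FOS with gefitinib, EGR1 with luteolin and IER2 with gefitinib against DMSO (limma adjusted p = 0.279, 0.738 and 0.437). Normexp changed the sign of EGR2 with gefitinib against DMSO (0.29), 0 h (0.082) and luteolin (0.31). None of these values was called (limma adjusted p = 0.127, 0.662 and 0.0978). Of 34 called changes of single members, median scaling, the series table and the median over probes changed 0, quantile normalization took 4 below the threshold and slide as a block 2 (FOSB with gefitinib, 0.95, and JUNB with both drugs, 0.97, against 0 h).

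Arrays with the same replicate number deviated together weakly, with correlations from -0.09 to 0.29 over the 10 pairs of groups, 6 of them above 0.1, so the numbers were not taken as pairs. With replicate number as a block, the counts were 3, 5, 3, 0, 3, 7, 4, 6, 2 and 3, and all 34 called changes kept their direction and side of the threshold. Dim signal limits EGR1, EGR2, EGR3, FOS and FOSB, which were well above background on 6, 6, 0, 7 and 5 of the 10 arrays.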
